A study of Homo sapiens with 2 samples.

Results

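The genes described here encode proteins that read, write or remove N6-methyladenosine (m6A), a methyl mark on adenosines of RNA: the readers IGF2BP1, IGF2BP2, IGF2BP3, YTHDF1, YTHDF2, YTHDF3, YTHDC1 and YTHDC2, the methyltransferase METTL3 and the demethylase FTO. They are listed by name, with no threshold on their counts, and all 10 were found among the 60649 rows of the count table. The counts are of RNA recovered by RNA immunoprecipitation (RIP), so they describe the transcripts of these genes and not where their proteins bind. For the first library the RIP antibody was against MT1-MMP, a matrix metalloproteinase anchored in the membrane, and for the second it was rabbit IgG, as a mock. Both came from MDA-231, a human breast cancer line of wild-type genotype per the labels, kept without serum for 16 h with the antibody P4G11 (called G11 in the sample tags) against beta-1 integrin. E7-s, named in the protocol of both libraries, is not explained there. The sample title of the first library names MMP1 where the design text names MT1-MMP, and the mock library carries the line name MDA-232. The design text was followed. There was no library from cells without the integrin antibody and none of input RNA.

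m6A is placed on RNA in the nucleus by a complex whose catalytic subunit is METTL3, and FTO is a demethylase that can take it off. Proteins with a YTH domain bind the mark directly: YTHDC1 in the nucleus, where it acts in splicing and export, and YTHDF1, YTHDF2 and YTHDF3 in the cytoplasm, where YTHDF2 is best known for leading RNA to decay. YTHDC2 is an RNA helicase with a YTH domain, known for its part in meiosis. The IGF2BP proteins bind RNA through KH domains and are known for stabilising and localising it. IGF2BP1 and IGF2BP3 are mostly fetal proteins that reappear in many tumours, while IGF2BP2 is also present in adult tissue.

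With 1 library per group there was no replicate, so no difference below has a replicate check and no p-value was computed. The library totals were 31636000 counts for MT1-MMP and 13003668 for IgG. Rows of the ribosomal DNA on chromosome 21 took 10.2% of the first and 92.6% of the second, which left 28401567 and 962952 counts for the other rows. Both a plain and a robust scale are therefore used. Plain CPM is a count as a share of the library total, in parts per 1e6, and 1 count is 0.0316 CPM with MT1-MMP and 0.0769 CPM with IgG. The trimmed mean of M-values (TMM) sets the typical row near a ratio of 1, which here equals 45.9 MT1-MMP counts to 1 IgG count, and every ratio below is on this scale except where plain CPM is stated. On the plain CPM scale each log2 ratio lies 4.24 higher. Intervals are exact 95% intervals for counting error alone, and no molecular identifiers tell duplicate reads from separate molecules. Calls of higher were made only where the entire interval was past 2-fold. Ratios were computed with 0.5 counts added to each library. Of markers of mesenchymal breast cancer lines, 7 of 8 passed the minimum of 20 summed counts, SPARC (3 and 0 counts) did not, and the 8 summed to 2548 and 146 CPM. The 8 luminal markers summed to 26 and 9.69 CPM, 5 leukocyte markers to 2.56 and 2.0, 5 fibroblast markers to 3.16 and 1.0 with COL1A2 at 0 in both, and 4 endothelial markers to 111 and 2.08, of which PECAM1 alone made 108 and 1.85. Few genes made most of other sums too. With MT1-MMP, EGFR made 1513 and CD44 797 of the mesenchymal CPM. With IgG, KRT19 made 9.15 of the luminal CPM, CD68 all 2.0 of the leukocyte CPM and COL1A1 0.923 of the fibroblast CPM.

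Of the 10 genes, IGF2BP2 and FTO were called higher in the MT1-MMP library, none was called higher in the IgG library, 7 were called neither, and IGF2BP1 had too few counts. Among the 14318 protein-coding genes tested, 7.24% were called toward MT1-MMP and 16.2% toward IgG. Calls need counts: among the 6295 protein-coding genes with between 529 and 25803 summed counts, the range of the 9 tested members, the shares were 15.4% and 6.43%. A count of 2 in 9 is close to the former share. Without the 2-fold margin, the interval lay above a ratio of 1 for 4 of the 9 (25.2% of the protein-coding genes) and included 1 for the other 5 (47.6%). The latter shares were taken over all tested protein-coding genes, not within the members' range of counts. These sides depend on the scale: 8 lay above 1 by totals outside the ribosomal DNA, all but METTL3, while with TMM over rows of at least 100 summed counts 3 lay above and 2 below. The median log2 ratio of the 9 was 0.38, against 0.05 over all tested protein-coding genes and 0.63 over those in the same range of counts. By plain CPM all 9 lay more than 2-fold above IgG beyond counting error, from 12.8-fold for METTL3 to 78.2-fold for FTO, as did 86.1% of the protein-coding genes.

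**Figure D1:**
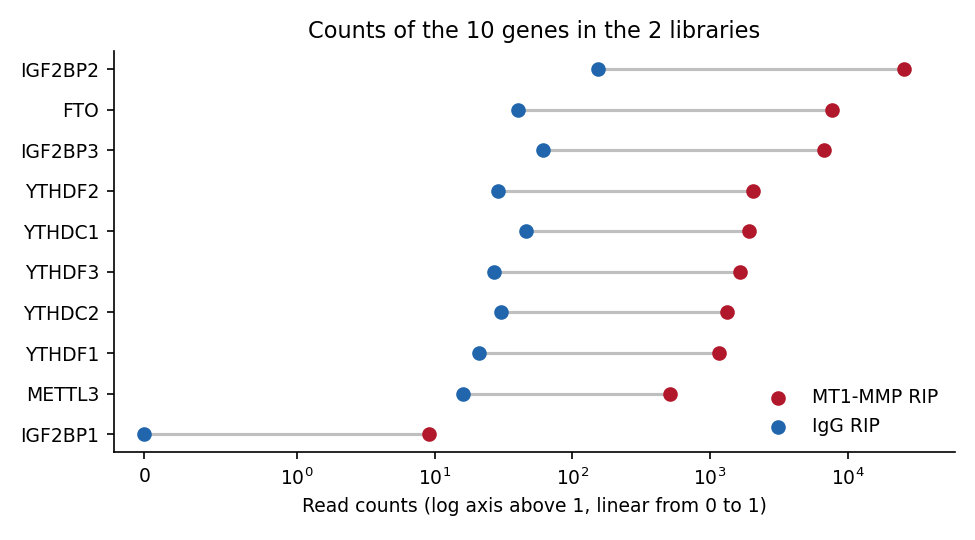
Read counts (horizontal axis, logarithmic above 1 and linear from 0 to 1) of the 10 genes in the MT1-MMP RIP and the IgG RIP, 1 library each, in order of their MT1-MMP counts. IGF2BP2 had the most counts in both libraries, 25649 and 154, and IGF2BP1 the fewest, 9 and 0.

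The IGF2BP readers spread widely in counts, from the most to the fewest of the 10 genes. IGF2BP2 (GRCh38 chromosome 3, 185643130 to 185825042, a span of 182 kb from start to end, introns included) had 25649 MT1-MMP counts and 154 IgG counts. Its count in the MT1-MMP library exceeded that of 99.6% of the tested protein-coding genes, and its count in the IgG library that of 97.9%. The log2 ratio was 1.85 (95% interval 1.63 to 2.10), or 3.62-fold (3.10 to 4.28), so the gene was called higher in the MT1-MMP library. It was called so under every scaling tried, at 5.63-fold by totals outside the ribosomal DNA, 4.66-fold with TMM over rows of at least 1 summed count and 2.71-fold with at least 100, a range wider than its counting interval. The row IGF2BP2-AS1, a noncoding gene whose 16536 bases lie within the span of IGF2BP2, had 1721 and 9 counts and a log2 ratio of 1.98. Since the use of strand in the counting is not given, reads of IGF2BP2 and IGF2BP2-AS1 cannot be told apart. The antisense row equalled 6.71% of the MT1-MMP counts of IGF2BP2 and 5.84% of its IgG counts.

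IGF2BP3 (chromosome 7, 23310209 to 23470491, 160 kb) had 6706 MT1-MMP counts and 61 IgG counts. Its log2 ratio of 1.25 (0.90 to 1.65) lay above 0 beyond counting error but was not called, since the lower bound was 1.86-fold. At its summed count of 6767 a call allowed at most 56 IgG counts. The neighbouring gene MALSU1 overlaps 1521 bases of the IGF2BP3 span and had 445 and 20 counts, the latter equal to 32.8% of the IgG counts of IGF2BP3. Reads in that overlap could belong to either gene.

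IGF2BP1 (chromosome 17, 48996558 to 49056145, 59.6 kb) had 9 MT1-MMP counts and 0 IgG counts. This is 0.284 CPM in the MT1-MMP library, and a count of 0 in the IgG library allows up to 3.69 counts by its exact 95% interval. Per kb of span that bound is 0.00476 CPM, against the 0.00477 CPM measured with MT1-MMP. With 9 summed counts the gene fell under the minimum of 20, and at a scaled ratio of 1 only 0.192 IgG counts would be met, so a difference toward MT1-MMP was not detectable at this depth. Of the 3 paralogs, IGF2BP1 was thus nearly without counts in both libraries, while IGF2BP3 exceeded 95.5% of the tested protein-coding genes in MT1-MMP counts and IGF2BP2 stood higher still.

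The 3 YTHDF readers, cytoplasmic paralogs, had similar counts in each library. YTHDF1 (chromosome 20, 63195429 to 63216131, 20.7 kb) had 1170 MT1-MMP counts and 21 IgG counts, a log2 ratio of 0.25 (-0.34 to 0.98). YTHDF2 (chromosome 1, 28736624 to 28769775, 33.2 kb) had 2037 and 29 counts, a log2 ratio of 0.59 (0.09 to 1.20). YTHDF3 (chromosome 8, 63168553 to 63212788, 44.2 kb) had 1648 and 27 counts, a log2 ratio of 0.38 (-0.14 to 1.02). None was called, and the intervals of all 3 overlap. On the TMM scale that of YTHDF2 alone excluded a ratio of 1. By totals outside the ribosomal DNA those of YTHDF1 (0.30 to 1.62) and YTHDF3 (0.50 to 1.66) did so too, and with TMM over rows of at least 100 summed counts none did (-0.33 to 0.78 for YTHDF2). The depth of the IgG library limits these values: a call as higher in the MT1-MMP library needed at most 5 IgG counts for YTHDF1, 13 for YTHDF2 and 9 for YTHDF3, and a call as higher in the IgG library at least 65, 105 and 87. The pseudogene rows YTHDF1P1 (32 and 0 counts) and YTHDF2P1 (34 and 2) were small beside their parent genes.

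The YTHDC readers had log2 ratios just below 0, within counting error of it. YTHDC1 (chromosome 4, 68310387 to 68350090, 39.7 kb), the nuclear reader, had 1915 MT1-MMP counts and 46 IgG counts, a log2 ratio of -0.16 (-0.56 to 0.31). YTHDC2 (chromosome 5, 113513694 to 113595284, 81.6 kb), the helicase, had 1322 and 30 counts, a log2 ratio of -0.08 (-0.58 to 0.51). Both intervals include 0 and neither gene was called. By totals outside the ribosomal DNA, a scale on which each log2 ratio lies 0.64 higher, both turn positive, to 0.48 (0.08 to 0.95) and 0.56 (0.06 to 1.15). With TMM over rows of at least 100 summed counts the interval of YTHDC1 lay below 0 (-0.98 to -0.10).

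METTL3 and FTO, the shortest and the longest of the 9 tested genes by span, stood at opposite ends of the 9 ratios. METTL3 (chromosome 14, 21498138 to 21511340, 13.2 kb) had 513 MT1-MMP counts and 16 IgG counts, a log2 ratio of -0.56 (-1.23 to 0.30), the lowest of the 9, and it was not called. Its sign turns by totals outside the ribosomal DNA (0.08, -0.59 to 0.94), and with TMM over rows of at least 100 summed counts its interval lay below 0 (-0.98, -1.65 to -0.12). TOX4, which overlaps 1033 bases of the METTL3 span, had 322 and 30 counts (log2 ratio -2.12), more than METTL3 in the IgG library. Reads in the overlap cannot be assigned to one of them. FTO (chromosome 16, 53703963 to 54121941, 418 kb) had 7707 and 40 counts. Its log2 ratio of 2.05 (1.62 to 2.56), or 4.15-fold (3.08 to 5.88), was the highest of the 9 and was called higher in the MT1-MMP library. No RefSeq-named row overlapped FTO. Rows known only by a clone name could not be placed and may lie within the span of any of these genes.

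**Figure D2:**
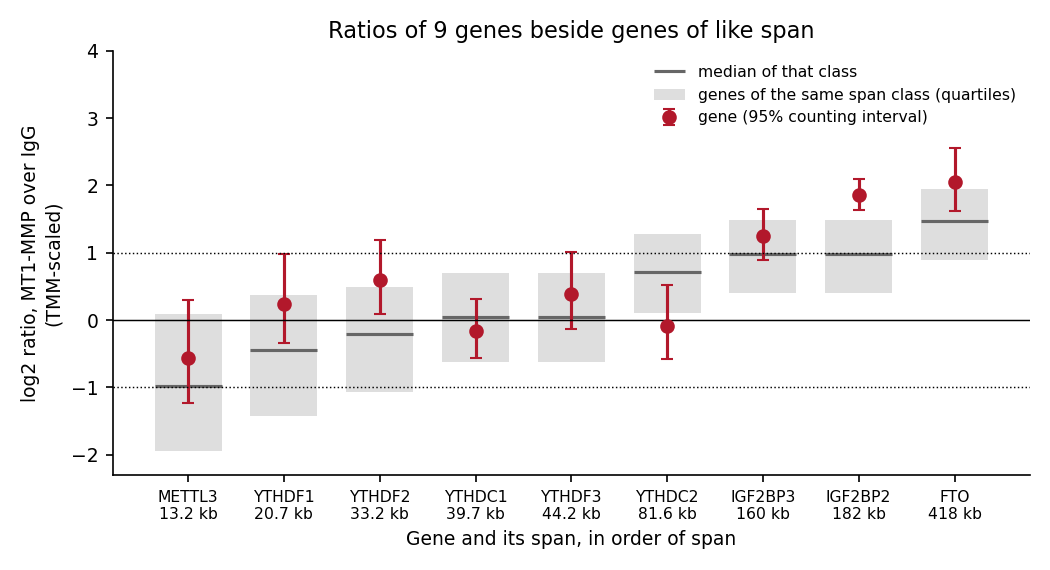
TMM-scaled log2 ratios of MT1-MMP to IgG counts (red points, with 95% counting intervals) for the 9 tested genes in order of gene span, beside the median (grey line) and quartiles (grey box) of protein-coding genes in the same span class. Dotted lines mark 2-fold; the intervals of IGF2BP2 and FTO lie wholly above the upper one.

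A contrast between 2 genes does not depend on how the libraries are scaled. It was taken as the ratio of their MT1-MMP to IgG ratios, with an exact conditional interval, for 8 pairs of related genes. FTO exceeded METTL3 by 6.01-fold (95% interval 3.12 to 11.1): FTO made 93.8% of the MT1-MMP counts of this pair and 71.4% of its IgG counts. The spans of FTO and METTL3 are 418 kb and 13.2 kb. Protein-coding genes of like span had median log2 ratios of 1.47 and -0.98, and the 2 genes lay 0.58 and 0.42 above these medians. Most of this contrast is thus also found between other genes of such spans, and the part of span in it was not tested. IGF2BP2 exceeded IGF2BP3 by 1.51-fold (1.11 to 2.05), with 79.3% and 71.6% of the counts of the pair. Both contrasts involve a gene with few IgG counts and an overlapping row. MALSU1 had 20 IgG counts beside the 61 of IGF2BP3, and TOX4 had 30 beside the 16 of METTL3. The intervals do not include the doubt over reads in these overlaps, and its effect on the contrasts was not tested. In the other 4 pairs that could be measured the interval included 1. YTHDF2 over YTHDF1 was 1.26 (0.68 to 2.30), YTHDF3 over YTHDF1 was 1.10 (0.59 to 2.02), and YTHDF2 over YTHDF3 was 1.15 (0.65 to 2.02). YTHDC1 over YTHDC2 was 0.94 (0.57 to 1.54). Differences of up to about these bounds within these pairs of YTH readers could not be seen at this depth. No YTHDF gene was set against a YTHDC gene. The 2 pairs with IGF2BP1 had upper bounds of 85.1 and 57.0 and no lower bound above 0, and say nothing further.

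**Figure D3:**
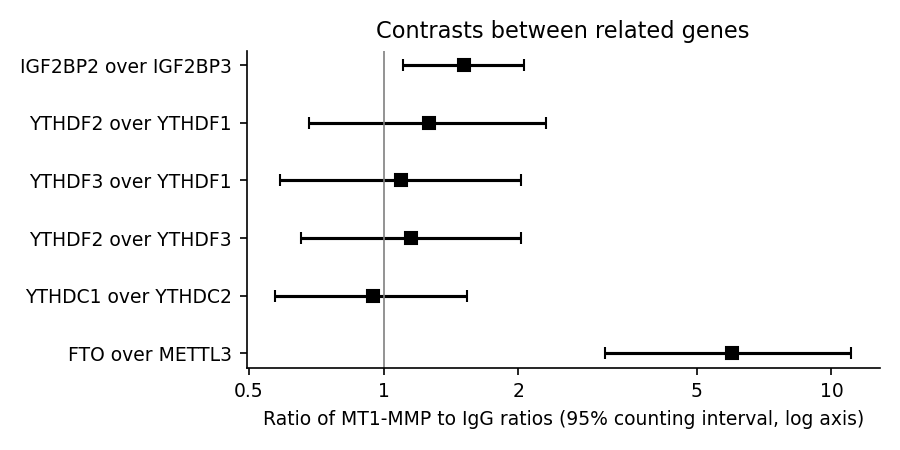
Ratio of the MT1-MMP to IgG ratios of 2 related genes (logarithmic axis, squares) with exact 95% counting intervals, for the 6 pairs without IGF2BP1. The intervals of FTO over METTL3 and of IGF2BP2 over IGF2BP3 lie above 1, and the other 4 include 1.

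The make-up of the set also differed between the libraries. The 10 genes together held 48676 MT1-MMP counts and 424 IgG counts. IGF2BP2 made 52.7% of the former (95% exact binomial interval 52.2 to 53.1) and 36.3% of the latter (31.7 to 41.1). FTO made 15.8% (15.5 to 16.2) and 9.43% (6.83 to 12.6), while the share of IGF2BP3 was 13.8% (13.5 to 14.1) and 14.4% (11.2 to 18.1). The shares of YTHDC1 were 3.93% (3.76 to 4.11) and 10.8% (8.05 to 14.2), those of YTHDC2 2.72% (2.57 to 2.86) and 7.08% (4.82 to 9.95), and those of METTL3 1.05% (0.965 to 1.15) and 3.77% (2.17 to 6.06). The YTHDF readers also made smaller shares of the MT1-MMP counts than of the IgG counts: YTHDF1 2.40% (2.27 to 2.54) and 4.95% (3.09 to 7.47), YTHDF2 4.18% (4.01 to 4.37) and 6.84% (4.63 to 9.68), and YTHDF3 3.39% (3.23 to 3.55) and 6.37% (4.24 to 9.13). Shares sum to 100%, so a larger share of one gene lowers those of the others. YTHDF2 had the smaller share with MT1-MMP although its own ratio lay above 1.

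Levels can be compared between genes only per length, and the length at hand is the span. In CPM per kb of span the order in the MT1-MMP library was IGF2BP2 (4.46), YTHDF2 (1.94), YTHDF1 (1.79), YTHDC1 (1.52), IGF2BP3 (1.32), METTL3 (1.23), YTHDF3 (1.18), FTO (0.583), YTHDC2 (0.512) and IGF2BP1 (0.00477). By exact Poisson intervals of the counts, the neighbours YTHDF2 and YTHDF1, IGF2BP3 and METTL3, and METTL3 and YTHDF3 overlapped, and the other neighbours did not. In the IgG library METTL3 came first (0.0932), followed by YTHDC1 (0.0891), YTHDF1 (0.0780), YTHDF2 (0.0673), IGF2BP2 (0.0651), YTHDF3 (0.0469), IGF2BP3 (0.0293), YTHDC2 (0.0283) and FTO (0.00736), with IGF2BP1 at 0. There all neighbours down to YTHDC2 overlapped. IGF2BP2 thus stood at place 1 by this measure with MT1-MMP and at place 5 with IgG. The latter place is not resolved. Its IgG interval (0.0552 to 0.0762) overlapped those of METTL3 (0.0533 to 0.151), YTHDC1 (0.0652 to 0.119), YTHDF1 and YTHDF2. The span counts introns, so a spliced transcript of a long gene gets a low level by this measure.

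Across protein-coding genes the ratio of the libraries went with gene span, and the members followed the same order. The 2 genes called were the longest of the set, METTL3 with the lowest ratio was the shortest, and over the 9 tested members Spearman's rho between span and log2 ratio was 0.78, a description of 9 genes from the same 2 libraries. The tested protein-coding genes were divided by span into 10 classes of equal size, and each member was set beside the genes of its own class, a comparison that no scaling of the libraries changes. IGF2BP2 lay 0.87 above the median of its class (0.99, quartiles 0.40 to 1.48), higher than 87.5% of those genes, and its interval began above the upper quartile. FTO lay 0.58 above the median of the class with the longest spans (1.47, quartiles 0.90 to 1.94), higher than 80.9% of its genes. IGF2BP3, in the same class as IGF2BP2, lay 0.26 above the median, and its interval included the median.

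The shorter genes were also mostly above the median of genes of like span, taken whatever the counts of those genes. YTHDF2 lay 0.79 above its median of -0.20 and YTHDF1 0.69 above its median of -0.44, and both intervals excluded that median. YTHDF3 lay 0.33 above its median of 0.05 and METTL3 0.42 above its median of -0.98, within their counting intervals. Hence METTL3, though lowest of the 9, was higher than 61.3% of genes of like span. YTHDC1 lay 0.21 below its median of 0.05, within counting error. YTHDC2 was the member farthest below: 0.80 under its median of 0.72, lower than the lower quartile of 0.11 and at the 19.6th percentile, with an interval that ended below the median. In all, 7 of 9 members lay above the median of their class and 2 below. The interval excluded the median for 4 above and 1 below, against 18.1% and 22.5% of all tested protein-coding genes. Those shares include many genes with fewer counts than the members and hence wider intervals. They were not taken within the members' range of counts, so they give no like background for the 4 and the 1. The class medians, the percentiles and the 7 of 9 were not matched for counts either. Protein-coding genes in the members' range of counts had a median log2 ratio of 0.63, against 0.05 over all those tested. Whether the members stand high among genes of like span and like counts was not tested. The comparison with genes of like span was added with the values already known.

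**Figure D4:**
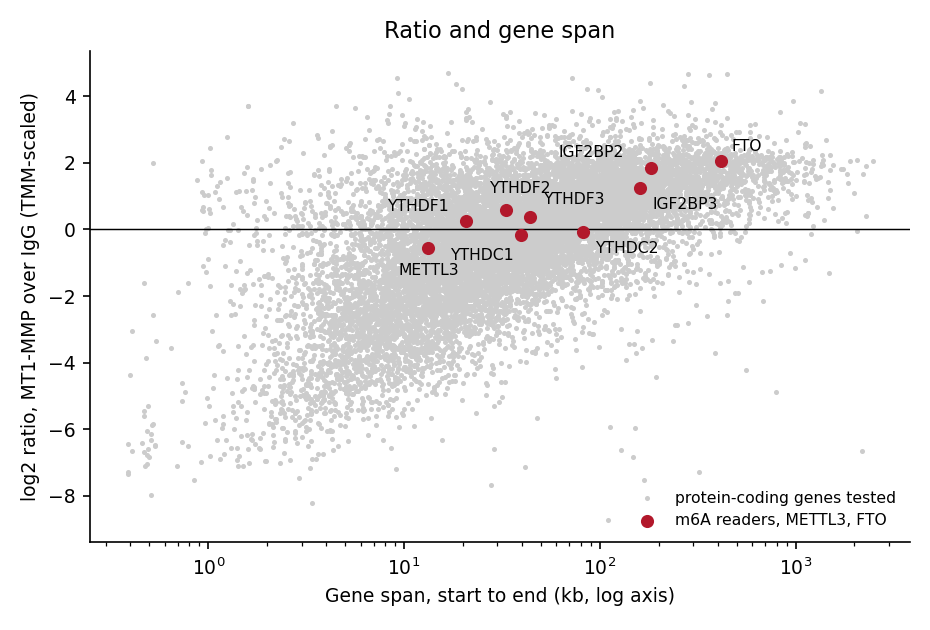
TMM-scaled log2 ratio of MT1-MMP to IgG counts (vertical axis) against gene span (horizontal axis, logarithmic) for the 14318 tested protein-coding genes (grey) and the 9 tested members (red). The members run from METTL3 at 13.2 kb and -0.56 to FTO at 418 kb and 2.05, within the grey cloud.

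In the rest of the m6A pathway, from a list of writers, erasers and readers, the calls numbered 0 toward MT1-MMP and 4 toward IgG among the other 15 genes, all tested, where 7.24% and 16.2% of protein-coding genes were called. Within the members' range of counts, where most of the 15 lie, the shares were 15.4% and 6.43%. Of the 4 called toward IgG, RBM15B and PRRC2A lie below that range, so 6.43% is no like background for them. The median log2 ratio of the 15 was -0.44. With the 9 tested members included, 2 of 24 were called toward MT1-MMP and 4 toward IgG, a split that became 4 and 3 with upper quartile scaling, 5 and 3 by totals outside the ribosomal DNA, 2 and 6 with TMM over rows of at least 100 summed counts and 22 and 0 by total counts. High ratios short of a call were those of the writer RBM15 (1243 and 7 counts, 1.85, 0.90 to 3.27) and the nuclear RNA-binding protein HNRNPC (17960 and 220 counts, 0.83, 0.64 to 1.03), both named after their values were seen and both called by totals outside the ribosomal DNA. Low ratios short of a call, likewise named afterwards, were those of the writers VIRMA (872 and 49 counts, -1.38, -1.78 to -0.92) and ZC3H13 (1757 and 86 counts, -1.18, -1.48 to -0.84). The reader FMR1 (663 and 26 counts, -0.87, -1.41 to -0.22) lay on the same side. Among the 8 other writers, RBM15B, an adaptor of the methyltransferase complex, had 131 MT1-MMP counts and 21 IgG counts (log2 ratio -2.91, -3.55 to -2.14), but DCAF1, which overlaps 2042 of its bases, had 2241 and 50. ALKBH5, the other m6A demethylase, had 1016 and 60 counts. Its log2 ratio of -1.45 (-1.82 to -1.04) was called higher in the IgG library, opposite to FTO, and its span is 26.1 kb against 418 kb. Among the 6 other readers, PRRC2A (257 and 134 counts, -4.58, -4.89 to -4.27, with SNORA38 inside its span equal to 17.5% of its MT1-MMP counts) and HNRNPA2B1 (3329 and 329 counts, -2.18, -2.35 to -2.01), a nuclear RNA-binding protein, were called the same way. By plain CPM PRRC2A alone of these 4 stayed below 0, at -0.35 (-0.65 to -0.03), while RBM15B, ALKBH5 and HNRNPA2B1 turned positive, at 1.33, 2.79 and 2.05. The call of ALKBH5 rests on a bound of -1.04, close to the 2-fold limit. It held with DESeq2 size factors and with TMM over rows of at least 100 summed counts. Under every other scaling tried, upper quartile and TMM over protein-coding rows among them, it was lost.

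Lists of proteins that work with the readers were set beside them. Over all tested protein-coding genes 7.24% were called toward MT1-MMP and 16.2% toward IgG. Among those with 529 to 25803 summed counts the shares were 15.4% and 6.43%. Most of the list genes, but not all, lie in that range. Of the genes called toward IgG, CNOT3, EIF3D, EIF3F, EIF3G and EIF3I lie below it, so 6.43% is no like background for their calls. The CCR4-NOT complex, the deadenylase that YTHDF2 recruits, had 1 of 11 genes called in each direction, and the median log2 ratio was 0.92. CNOT4, a ubiquitin ligase of this complex, had 3605 and 26 counts (1.57, 1.04 to 2.21) over 148 kb, and CNOT3, a regulatory subunit, 176 and 26 counts (-2.79, -3.36 to -2.11) over 17.9 kb, where the overlapping LENG1 equalled 26.9% of its IgG counts. The subunits of eIF3, a translation initiation factor linked to YTHDF1, had 8 of 13 called toward IgG and 0 toward MT1-MMP (median -1.64). EIF3A, its largest subunit, had 2729 and 278 counts (-2.23, -2.40 to -2.04) and EIF3F 227 and 47 (-3.26, -3.71 to -2.76). The other 6 were EIF3B, EIF3D, EIF3G, EIF3I, EIF3L and EIF3M, from -3.49 to -1.48, of which EIF3B, EIF3G, EIF3I and EIF3M overlap rows with at least 10% of their counts in a library. None of 6 partners of YTHDC1 and YTHDC2 was called (median -0.48). The 2 whose interval lay farthest from 0, by the bound nearer to it, were the helicase UPF1 (910 and 53 counts, -1.43, -1.82 to -0.99) and the splicing factor SRSF3 (2496 and 77 counts, -0.51, -0.83 to -0.16). By plain CPM the medians of these 3 lists were 5.16, 2.60 and 3.76, so only their order, not their sign, is free of the scale. The median span of their genes was 84.0 kb for CCR4-NOT, 25.7 kb for eIF3 and 18.3 kb for the YTHDC partners, and the part of span in the order of the lists was not tested. The calls depend on the scale too. With DESeq2 size factors CNOT4 was not called, and UPF1 was called higher in the IgG library. By totals outside the ribosomal DNA EIF3D, EIF3L and EIF3M lost their calls, while EIF3H and further CCR4-NOT genes were called toward MT1-MMP.

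**Figure D5:**
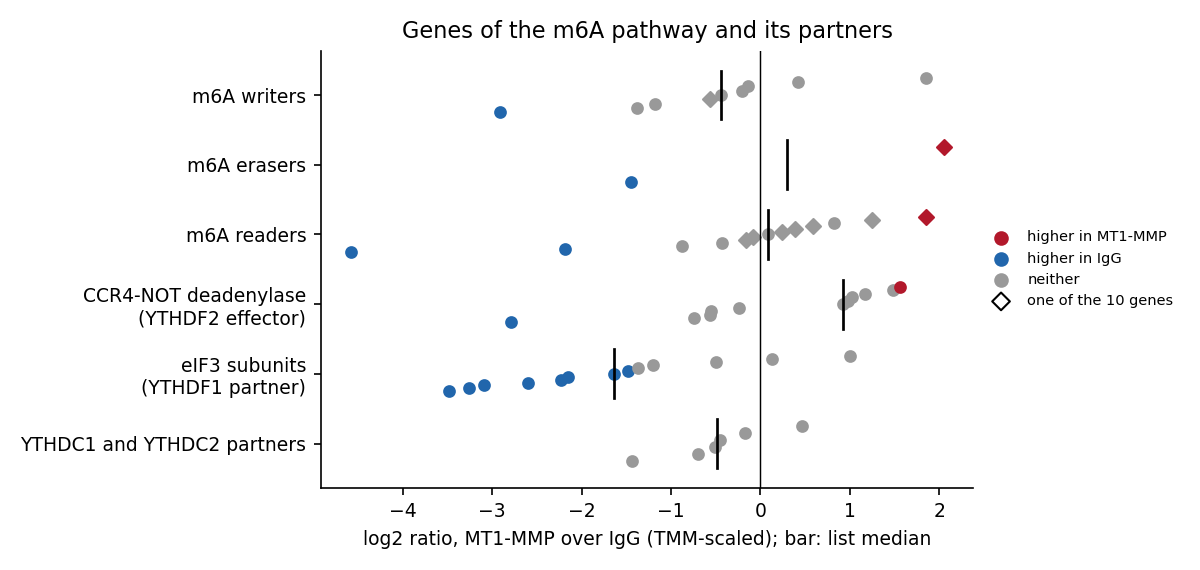
TMM-scaled log2 ratios of MT1-MMP to IgG counts for the tested genes of each list, coloured by call, with a vertical bar at the list median; diamonds are the 10 genes described here. IGF2BP2, FTO and CNOT4 were called higher in the MT1-MMP library, and 8 of 13 eIF3 subunits in the IgG library.

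Sequence was at hand for the promoters, and is shown for a pair of motifs, each found in 2 of the members. RefSeq (GRCh38.p14) windows from 250 bases before to 50 after a transcript start were found for 8 members, 10 windows in all. They were searched on both strands for TGACGTCA (the cyclic AMP response element), CACGTG (an E-box), CCGGAA (the core of ETS sites) and TATAAA (the TATA box), motifs picked after the windows had been seen. None of these strings contains another. TGACGTCA was found in both YTHDC genes and in 1.85% of all 35116 windows, and CACGTG in IGF2BP3 and YTHDF1 and in 7.26%. CCGGAA was found in METTL3 (17.2% of all windows), and TATAAA, on the opposite strand, in METTL3 and in the second window of IGF2BP2 (11.5%). The windows around TGACGTCA and CACGTG are 30 bases long, written 5′ to 3′ on the strand of the gene with the motif in capitals. They lie at chr4:68350169-68350198 (minus strand) for YTHDC1, chr5:113513665-113513694 (plus strand) for YTHDC2, chr7:23470648-23470677 (minus strand) for the first of the IGF2BP3 matches and chr20:63216325-63216354 (minus strand) for YTHDF1.
YTHDC1: gggcgacgcgcTGACGTCAcgtcacgttcc
YTHDC2: gccggccctggTGACGTCAttacgcccgcg
IGF2BP3: tctgggattcctCACGTGagacgttgattt
YTHDF1: ccggacacgcccCACGTGacttccccggct
A match is a string of letters and not a measured site, and the counts of these 2 libraries do not measure promoters.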

How the data were processed

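RNA from 1 MT1-MMP RIP and 1 rabbit IgG RIP of MDA-231 cells was analysed from the deposited table of raw read counts per gene row, made by the authors with cutadapt, HISAT2 and SAMtools on hg38, per the submitters' processing notes. Versions, the read counter, the gene models and strand settings are not stated. Columns were assigned to libraries through the names that the labels give, and 0 columns stayed unmapped. Names were matched to RefSeq (GRCh38.p14) for class, position and span, for 39250 rows. From 60649 rows, 959 repeats of both name and counts were left out of comparisons, and 25933 with at least 20 summed counts were tested, 14318 of them protein-coding. TMM factors came from edgeR 4.0.16 (R 4.3.3), and intervals and contrasts from SciPy 1.17.1. With 1 library per group no count model was fitted. The scripts were tested on simulated counts. Members and lists were chosen with earlier results of these data known. Named are the 10 members, the called genes of each list (otherwise the 2 whose interval, by its nearer bound, lay farthest from a ratio of 1), and overlapping rows with at least 10% of a member's counts. Some uncalled pathway genes were named besides, after their values were seen. Alternatives were other scalings (among them DESeq2 1.42.0 size factors), minimum counts, added counts and call limits.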

Additional observations from a re-analysis of the deposited data

How the results depend on the processing

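Members called toward MT1-MMP numbered 2 under TMM, 9 of 9 when scaled by total counts and 4 with a limit of 1-fold in place of 2-fold, the added genes in the latter case being IGF2BP3 and YTHDF2. It was 2 or 3 under the other 6 settings, and 0 members were called higher in the IgG library under any of them. Of the 24 tested m6A pathway genes, 6 were called in either direction under TMM and 22 by total counts, all of them in the MT1-MMP direction; the other settings gave 5 to 8. IGF2BP3 was the third member called with upper quartile scaling, by totals outside the ribosomal DNA and with a minimum of 1 count. The contrasts whose interval excluded 1 stayed at 2 with pseudogene counts added. For those 2 this is no check, since IGF2BP2, IGF2BP3 and METTL3 gained no counts and FTO only 2 and 0. The overlapping rows MALSU1 and TOX4 were not tried. In the comparison by span, 7 members lay above the median of their class also when the class held only genes that overlap no other. No called member changed direction. No paired analysis was possible because each group has 1 library and the labels carry no replicate numbers, and no library could be left out. The IgG depth limits precision: the 9 tested members rest on 16 to 154 IgG counts.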
